A study of Mus musculus with 6 samples.

Results

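The genes described here encode the cell-surface contacts through which the γδ T cells of mouse epidermis touch keratinocytes: JAML (listed under its older symbol Amica1) and its ligand CAR (Cxadr), and the semaphorin CD100 (Sema4d) with its receptors plexin B1 (Plxnb1), plexin B2 (Plxnb2) and CD72 (Cd72). They were taken by symbol and are 6 of the 47455 gene symbols in the deposited tables. RNA was sequenced from the epidermis of 6-8 week old C57BL/6 mice, with 3 libraries of tissue collected 2 h after wounding and 3 of non-wounded tissue. Wounding consisted of 8 punch biopsies of 3 mm in the back, and the epidermis was lifted from the dermis with trypsin before poly-dT capture. Each of the 3 mice gave 1 wounded and 1 non-wounded library, so that the groups can be compared within each mouse.

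Dendritic epidermal T cells are γδ T cells that live between keratinocytes and respond to damaged neighbours through their receptor and a set of costimulatory contacts. JAML on these T cells binds CAR, a junctional protein of epithelial cells that also serves as a virus receptor, and engagement recruits phosphoinositide 3-kinase. CD100 on the T cell binds plexin B2 on keratinocytes and takes part in the rounding of the T cells after wounding, plexin B1 is its high-affinity receptor in other tissues, and CD72 is an inhibitory receptor for it that is best known from B cells.

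The libraries held between 20746185 and 26814845 rounded counts. Levels within a gene are given as CPM (counts scaled by library size and TMM factor), and levels between genes as the authors' TPM, which corrects for transcript length. A log2 fold change above 0 means a higher level in wounded tissue, and it is given with its standard error (SE). The quasi-likelihood test of edgeR was run over all 16079 genes with enough counts, and a gene was called at an adjusted p under 0.05. Of those genes 48.4% were called, 24.0% as higher and 24.4% as lower. As labelled, the tissue carried keratinocyte transcripts: the summed level of 9 markers lay between 33600 and 38006 CPM in wounded libraries and between 29872 and 37614 CPM in non-wounded ones. Transcripts of other cell types were also present, and 7 fibroblast markers summed to between 29.8 and 65.4 CPM in wounded libraries, against 2.82 to 7.40 CPM in non-wounded ones. For 5 red blood cell markers the sums were 97.3 to 165 CPM in wounded and 18.9 to 26.1 CPM in non-wounded libraries. For 5 platelet markers they were 7.17 to 9.51 and 4.11 to 6.21 CPM. The sums of 8 endothelial markers overlapped, at 4.25 to 5.76 CPM in wounded and 4.76 to 6.75 CPM in non-wounded libraries. The part of these cells in the results below was not tested.

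Cxadr, Sema4d and Plxnb2 rose in wounded epidermis, and Plxnb1 and Cd72 fell. Amica1 was lower in wounded tissue of every mouse but did not pass the test. Thus 5 of the 6 genes were called, 3 higher and 2 lower, against a background of 48.4% of all genes. The CPM ranges of wounded and non-wounded libraries did not overlap for any of the 6, against 58.5% of all genes without overlap. The median absolute log2 fold change over all genes tested was 0.50.

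**Figure D1:**
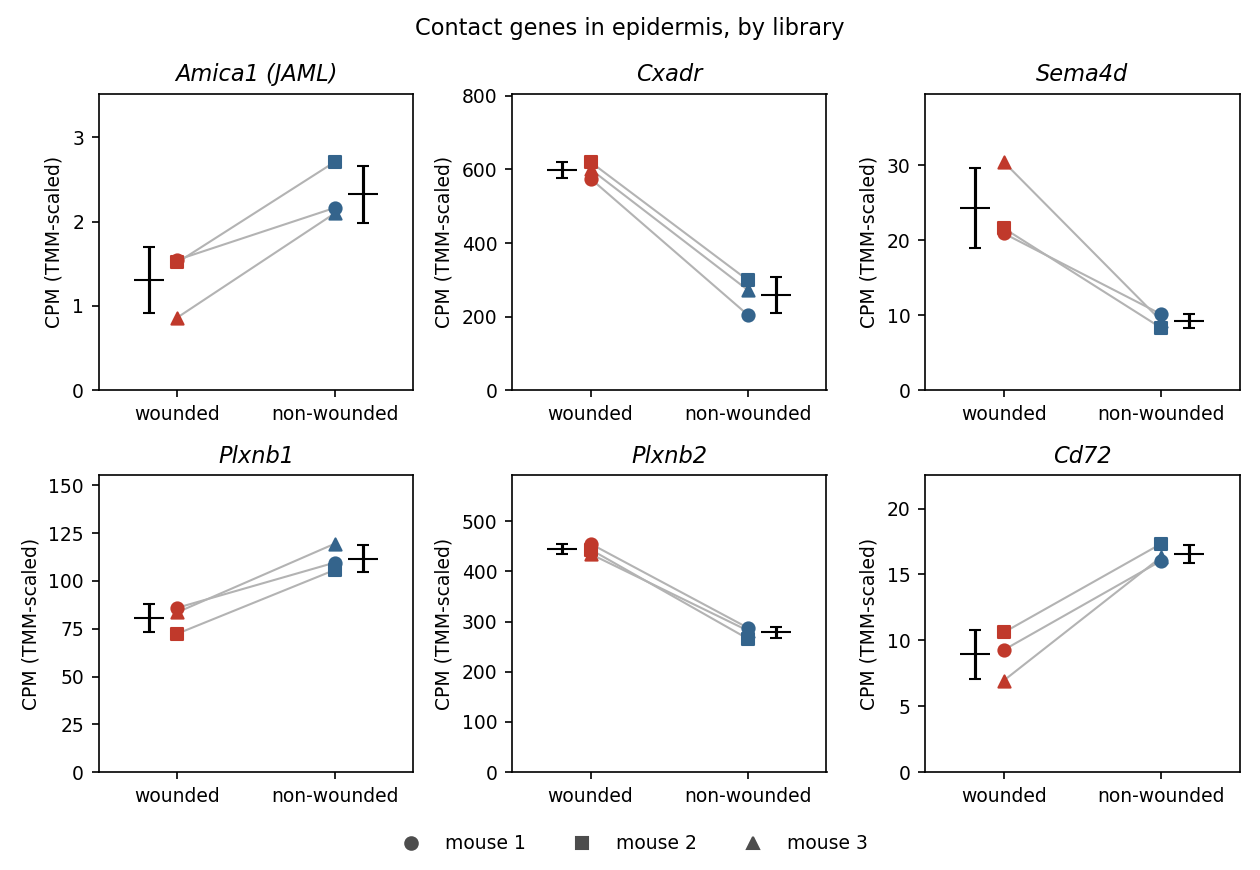
CPM (TMM-scaled counts, axes from 0) of the 6 contact genes in each library, wounded left of non-wounded, with lines joining the libraries of 1 mouse and bars at the mean ± SD (n = 3). In each panel the wounded points lie wholly above (Cxadr, Sema4d, Plxnb2) or wholly below (Amica1, Plxnb1, Cd72) the non-wounded ones.

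CAR rose, and JAML did not pass the test. Cxadr, the keratinocyte side of the pair, stood at 575, 620 and 601 CPM in the wounded libraries of mice 1, 2 and 3, against 205, 299 and 272 CPM in their non-wounded libraries. All wounded values lay above all non-wounded ones. The rise came to log2 1.21 (SE 0.13, adjusted p = 5.20e-05 by edgeR), and it was log2 1.49, 1.05 and 1.14 within mice 1, 2 and 3. The lowest non-wounded library was that of mouse 1, and the wounded libraries were closer to each other than the non-wounded ones.

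Amica1, the T cell side, was the rarest of the 6 transcripts. It had 33, 36 and 16 counts in the wounded libraries of mice 1, 2 and 3 (1.55, 1.51 and 0.863 CPM), against 57, 71 and 51 counts in the non-wounded ones (2.16, 2.70 and 2.10 CPM). The difference of log2 -0.82 (SE 0.34) did not pass (adjusted p = 0.0678 by edgeR). Within mice 1, 2 and 3 it was log2 -0.46, -0.80 and -1.19. The value depended on scaling: with upper-quartile factors, library totals alone and limma on log2(TPM + 1) the adjusted p was 0.0360, 0.0149 and 0.0136, and over all alternatives it ranged from 0.0122 to 0.197, with Amica1 lower in each. In bulk tissue, fewer cells of a type and less RNA per cell cannot be told apart.

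The T cell markers measured in the same libraries were also lower. The summed level of 16 dendritic epidermal T cell markers was 198, 178 and 165 CPM in the wounded libraries of mice 1, 2 and 3, against 253, 238 and 206 CPM in the non-wounded ones. Of these markers, 8 fell, 1 rose (Il2rb, a chain of the IL-2 and IL-15 receptor) and 7 did not pass, 56.2% called against 48.4% of all genes. Cd3g, a CD3 chain, fell by 0.85 on the log2 scale (SE 0.22), while Trdc, the constant region of the receptor delta chain, had 33.8 ± 1.84 CPM in wounded tissue and 37.3 ± 6.06 CPM in non-wounded tissue (SD, n = 3 each, adjusted p = 0.397 by edgeR). Per 100 counts of the 16 markers, Amica1 had 0.780, 0.849 and 0.522 counts in the wounded libraries and 0.853, 1.14 and 1.02 in the non-wounded ones. These ranges do not overlap, but in mouse 1 the wounded value was 0.915 of the non-wounded one.

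Neutrophils and monocytes also carry JAML. The summed level of 12 neutrophil markers lay between 9.97 and 14.4 CPM in wounded libraries, against 2.24 to 4.76 CPM in non-wounded ones, and Ly6g, a defining one, had 0 counts in all 6. The 12 monocyte and macrophage markers summed to between 33.0 and 42.1 CPM in wounded libraries and between 35.8 and 40.4 CPM in non-wounded ones. Of the 12 neutrophil markers only 4 (Csf3r, Cxcr2, S100a8 and S100a9) had enough counts to test. All 4 rose, against 24.0% of all genes called higher. The filter can keep a gene on the counts of 1 group. Csf3r, for example, had 32, 22 and 27 counts in wounded and 4, 6 and 7 in non-wounded libraries. Whether neutrophils or monocytes held any of the Amica1 transcripts was not tested.

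Within a library the scaling cancels, so the balance of the pair can be read without it. There were 372, 409 and 696 counts of Cxadr for each count of Amica1 in the wounded libraries of mice 1, 2 and 3, against 94.9, 111 and 130 in the non-wounded ones. The wounded ratio was 3.92, 3.70 and 5.36 times the non-wounded ratio of the same mouse. The exact two-sided permutation test of 3 against 3 libraries gave p = 0.1 for this and each of the other 7 ratios computed here. The exact permutation test also gave p = 0.1 after adjustment over the 8. That test exchanged libraries without regard to mouse, so the pairing was not used. Its p is the smallest such an exchange can give, so it cannot tell the 8 ratios apart.

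Amica1 (Jaml in current annotation, ENSMUSG00000048534.7) is a protein-coding gene on the plus strand of chromosome 9, from 45079183 to 45108534 in GRCm38 (mm10), the build of the tables. Cxadr (ENSMUSG00000022865.14) lies on the plus strand of chromosome 16, from 78301489 to 78359774. It overlaps Btg3 on the minus strand over 27138 bases. Btg3, an antiproliferative gene, had 1785, 1800 and 1554 counts in the wounded libraries and 1529, 1373 and 1213 in the non-wounded ones, far fewer than the 5408 to 14740 of Cxadr. The strand setting of the counting is not given. The RefSeq promoter window of Jaml runs from 250 bases before to 50 after the annotated start (chr9:45078933-45079232, plus strand, GRCm38.p6). It is shown because this T cell gene differs from the plexin genes in base composition. Capitals mark a TATAAA, which 13.6% of the 32851 RefSeq promoter windows hold on either strand:
Jaml: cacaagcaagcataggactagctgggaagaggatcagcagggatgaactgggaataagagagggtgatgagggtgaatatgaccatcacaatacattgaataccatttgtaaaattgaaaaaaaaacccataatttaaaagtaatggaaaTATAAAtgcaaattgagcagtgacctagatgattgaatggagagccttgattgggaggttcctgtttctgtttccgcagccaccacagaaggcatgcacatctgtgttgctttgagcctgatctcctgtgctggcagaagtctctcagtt
The window has 1 CG pair, and 5.43% of windows have fewer. A match to a motif here describes the letters and shows no factor binding.

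Sema4d, the plexin B ligand among the 6 genes, rose. It stood at 20.9, 21.6 and 30.5 CPM in the wounded libraries of mice 1, 2 and 3, against 10.2, 8.34 and 9.29 CPM in the non-wounded ones. The wounded library of mouse 3 was the highest, and no wounded value reached down to the non-wounded range. The rise was log2 1.39 (SE 0.17, adjusted p = 0.000109 by edgeR), or log2 1.04, 1.36 and 1.70 within mice 1, 2 and 3. It was called under all 15 alternatives, with a log2 value of at least 0.93 in each.

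Sema4d was also higher relative to the T cell markers. For 100 counts of the 16 markers it had 10.6, 12.1 and 18.4 counts in the wounded libraries of mice 1, 2 and 3, against 4.01, 3.51 and 4.50 in the non-wounded ones, which is 2.64, 3.46 and 4.09 times as many within each mouse. With Il2rb left out of the sum, Sema4d had 11.6, 13.5 and 20.5 counts per 100 in wounded libraries, against 4.17, 3.63 and 4.66 in non-wounded ones. Il2rb itself also stood higher, with 8.70, 10.0 and 10.2 counts per 100 in wounded and 3.84, 3.28 and 3.52 in non-wounded libraries. The values say nothing of which cells hold the Sema4d transcripts, since CD100 is also made by other leukocytes and by epithelial cells.

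**Figure D2:**
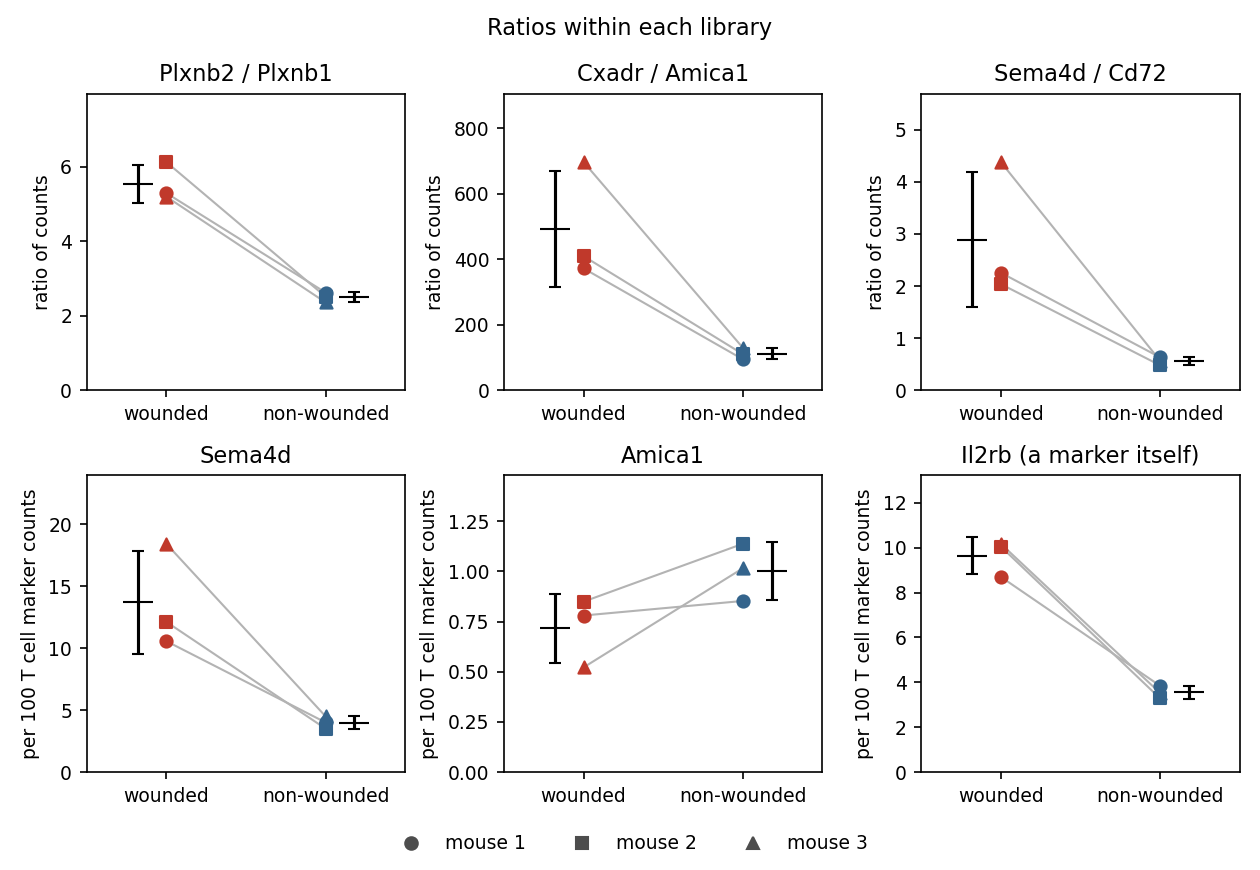
Ratios of counts within each library (axes from 0), wounded left of non-wounded, with lines joining the libraries of 1 mouse and bars at the mean ± SD (n = 3). The upper row shows Plxnb2 over Plxnb1, Cxadr over Amica1 and Sema4d over Cd72. The lower row shows counts per 100 counts of the 16 T cell markers. There Sema4d and Il2rb lie higher and Amica1 lower in wounded libraries.

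Sema4d (ENSMUSG00000021451.16) occupies the minus strand of chromosome 13, from 51685529 to 51793747. RefSeq lists 3 starts for it, and the windows of the 2 upstream ones are printed because Sema4d is the ligand that rose together with its receptor gene Plxnb2. Capitals mark an AGGAAG (an ETS core, in 35.4% of all windows on either strand) in the first, at chr13:51756634-51756933. In the second, at chr13:51748761-51749060, they mark a TGANTCA, a loose AP-1 pattern with any middle base, here A (in 7.81% of windows). Both windows are on the minus strand:
Sema4d, start 1: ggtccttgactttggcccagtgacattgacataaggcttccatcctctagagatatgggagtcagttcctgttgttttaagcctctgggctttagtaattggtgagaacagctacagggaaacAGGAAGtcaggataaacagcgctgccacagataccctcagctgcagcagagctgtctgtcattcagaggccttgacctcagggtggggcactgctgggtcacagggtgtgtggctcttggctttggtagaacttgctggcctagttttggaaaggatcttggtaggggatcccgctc
Sema4d, start 2: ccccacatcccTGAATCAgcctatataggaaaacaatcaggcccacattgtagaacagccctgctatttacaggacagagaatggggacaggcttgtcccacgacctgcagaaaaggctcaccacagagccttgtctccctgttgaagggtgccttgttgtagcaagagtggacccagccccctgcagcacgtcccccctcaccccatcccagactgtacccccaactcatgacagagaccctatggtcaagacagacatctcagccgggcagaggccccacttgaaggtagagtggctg
These windows hold 2 and 3 CG pairs, against a median of 7 over all windows. Both windows lie inside the GENCODE span of the gene, downstream of its 5' end at 51793747, and no window at that end was examined. The counts are per gene, so which start was in use was not measured.

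The other class 4 semaphorins, transmembrane ligands of the same class, moved in both directions. Sema4b rose to 86.0, 94.0 and 105 CPM in the wounded libraries of mice 1, 2 and 3, against 42.8, 41.2 and 36.0 CPM in the non-wounded ones (log2 1.25, SE 0.11, adjusted p = 1.53e-05 by edgeR). Sema4g fell to 12.1, 12.0 and 8.09 CPM in wounded libraries, against 27.3, 37.3 and 25.2 CPM in non-wounded ones (log2 -1.48, SE 0.19). Sema4c, a plexin B2 ligand, did not pass at 8.67 ± 2.11 CPM in wounded tissue and 5.82 ± 1.76 CPM in non-wounded tissue (SD, n = 3 each), nor did Sema4a, at 49.6 ± 4.53 and 51.7 ± 5.91 CPM. In TPM, Sema4d made up 12.1 ± 2.14% of the class in wounded libraries, against 6.06 ± 0.62% in non-wounded ones. The share of Sema4g was 3.58 ± 0.85% in wounded and 13.6 ± 3.51% in non-wounded libraries.

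Over the whole semaphorin family, 15 of 20 genes had enough counts to test, 4 rose, 4 fell and 7 did not pass (53.3% called, against 48.4% of all genes). The median log2 fold change of the 15 was 0.15, against -0.03 over all genes. Besides Sema4d and Sema4b, Sema3e, the ligand of plexin D1, rose by log2 1.16 (SE 0.15) and Sema6d by 0.67 (SE 0.22). Sema3f, a neuropilin-2 ligand, changed by log2 -0.87 (SE 0.09), Sema6c by -1.40 (SE 0.45) and Sema6a by -0.59 (SE 0.21). The split was 3 higher and 7 lower under library totals, 3 and 5 under upper-quartile factors, 4 and 6 when each mouse formed a block, and 3 and 2 once the wounded library of mouse 3 was left out. The calls of Sema6d and Sema6a were lost in 9 of 15 alternatives each and that of Sema6c in 4. Sema3a, Sema3b, Sema3g, Sema5b and Sema6b had between 0 and 29 counts per library and were not tested.

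The CD100 receptors of the plexin B family moved apart. Plxnb2 stood at 455, 443 and 434 CPM in the wounded libraries of mice 1, 2 and 3, against 287, 266 and 282 CPM in the non-wounded ones. Each group was tight and well apart from the other. The rise was log2 0.67 (SE 0.08, adjusted p = 0.000119 by edgeR), and log2 0.66, 0.74 and 0.62 within the 3 mice. Plxnb1 fell to 86.0, 72.4 and 83.6 CPM in wounded libraries, against 110, 106 and 119 CPM in non-wounded ones. Its highest wounded value lay below its lowest non-wounded one (log2 -0.47, SE 0.10, adjusted p = 0.00311 by edgeR, and log2 -0.35, -0.55 and -0.51 within mice 1, 2 and 3). Plxnb3, the remaining B plexin, had 2 to 6 counts per library and was not tested.

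The balance of counts between both receptor genes, which needs no scaling between libraries, shifted to Plxnb2. There were 5.29, 6.12 and 5.20 counts of Plxnb2 for each of Plxnb1 in the wounded libraries of mice 1, 2 and 3, against 2.62, 2.51 and 2.36 in the non-wounded ones. Within each mouse this was 2.02, 2.44 and 2.20 times higher in wounded tissue. These ratios are not corrected for length, and the relative length of both genes differed between the groups, as given below. In TPM, Plxnb2 made up 87.5 ± 1.82% of the B plexins in wounded libraries, against 81.1 ± 1.40% in non-wounded ones (SD, n = 3 each).

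In TPM both plexin B calls were lost. Plxnb2 stood at 106, 106 and 121 TPM in the wounded libraries of mice 1, 2 and 3, against 106, 87.6 and 98.1 TPM in the non-wounded ones, and did not pass with limma on log2(TPM + 1) (log2 0.19, SE 0.12, adjusted p = 0.248). For Plxnb1 the values were 17.4, 12.5 and 17.4 TPM in wounded and 23.0, 19.7 and 25.3 TPM in non-wounded libraries (log2 -0.50, SE 0.17, adjusted p = 0.0502 by limma). Over all alternatives the adjusted p ranged from 6.33e-13 to 0.264 for Plxnb2 and from 0.000122 to 0.0898 for Plxnb1. Moving to the log2(TPM + 1) scale shifted the median log2 fold change of all genes by -0.30.

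Counts and TPM of a gene differ by the mean effective length of its transcripts, so their quotient, divided by the library's median over 10878 well-covered genes, follows the mix of long and short transcripts. For Plxnb2 this relative length was 2.20, 2.12 and 1.93 in the wounded libraries of mice 1, 2 and 3, against 1.74, 1.92 and 1.87 in the non-wounded ones. For Plxnb1 it was 2.54, 2.94 and 2.58 in wounded and 3.06, 3.39 and 3.07 in non-wounded libraries. The shift was upward for Plxnb2 (log2 0.18, larger than in 84.2% of genes) and downward for Plxnb1 (log2 -0.24, larger than in 90.4%). Neither gene had overlapping ranges, but those of Plxnb2 nearly met, at 1.93 and 1.92. The ranges of Amica1 were also apart, at a shift of only log2 0.04. The share of all genes without overlap in relative length was not computed. For Cxadr (log2 -0.03) and Sema4d (log2 -0.01) the ranges overlapped, and the non-wounded library of mouse 3 stood out for Sema4d at 1.85, against 1.18 and 1.31 in the other non-wounded libraries.

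Plxnb1 (ENSMUSG00000053646.13) lies on the plus strand of chromosome 9, from 109095389 to 109119917, and Plxnb2 (ENSMUSG00000036606.17) on the minus strand of chromosome 15, from 89155549 to 89180788. The antisense gene Gm7628, which overlaps Plxnb1, had 10 to 41 counts per library. The upstream promoter windows of both genes are chr9:109095186-109095485 on the plus strand and chr15:89180739-89181038 on the minus strand. They are shown to set beside each other a pair of paralogs that moved in opposite directions. Capitals mark GGGCGG (a GC box) on either strand, which 35.7% of windows hold:
Plxnb1: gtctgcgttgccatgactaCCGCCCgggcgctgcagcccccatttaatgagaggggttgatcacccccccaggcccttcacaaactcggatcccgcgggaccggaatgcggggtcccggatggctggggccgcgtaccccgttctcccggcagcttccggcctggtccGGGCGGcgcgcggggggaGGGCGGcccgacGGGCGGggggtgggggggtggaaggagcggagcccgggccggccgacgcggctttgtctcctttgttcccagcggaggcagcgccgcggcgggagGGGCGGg
Plxnb2: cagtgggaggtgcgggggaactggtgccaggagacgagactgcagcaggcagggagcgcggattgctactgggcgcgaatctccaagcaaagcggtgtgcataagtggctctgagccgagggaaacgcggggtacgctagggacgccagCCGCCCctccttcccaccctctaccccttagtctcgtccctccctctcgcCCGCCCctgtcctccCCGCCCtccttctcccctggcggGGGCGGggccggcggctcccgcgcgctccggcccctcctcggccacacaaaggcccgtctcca
The Plxnb1 window holds 5 GC boxes and 36 CG pairs and the Plxnb2 window 4 GC boxes and 27 CG pairs. A second RefSeq start of Plxnb2, at chr15:89173902-89174201 and not printed, has 3 GC boxes, 15 CG pairs and 1 match to the kappaB motif, which 4.79% of windows hold. Both upstream windows are rich in CG, with more pairs than 93.8% and 84.5% of windows, unlike the printed windows of Jaml and Sema4d. Those of Sema4d lie inside the gene, so its 5' end is not part of that comparison.

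Of 11 plexin and neuropilin genes 9 were tested, 2 rose (Plxnb2 and Plxna2), 3 fell (Plxna1, Plxna3 and Plxnb1) and 4 did not pass, 55.6% called against 48.4% of all genes. Plxna2 rose by log2 0.45 (SE 0.10), though with library totals alone its value was 0.13 (adjusted p = 0.316 by edgeR). Plxna1 fell by 0.45 (SE 0.09) and Plxna3 by 0.55 (SE 0.12) on the log2 scale. With library totals alone 1 was higher and 5 lower, and on log2(TPM + 1) 0 were higher and 2 lower (Plxna1 and Plxna3). The neuropilins, co-receptors of class 3 semaphorins, did not pass.

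**Figure D3:**
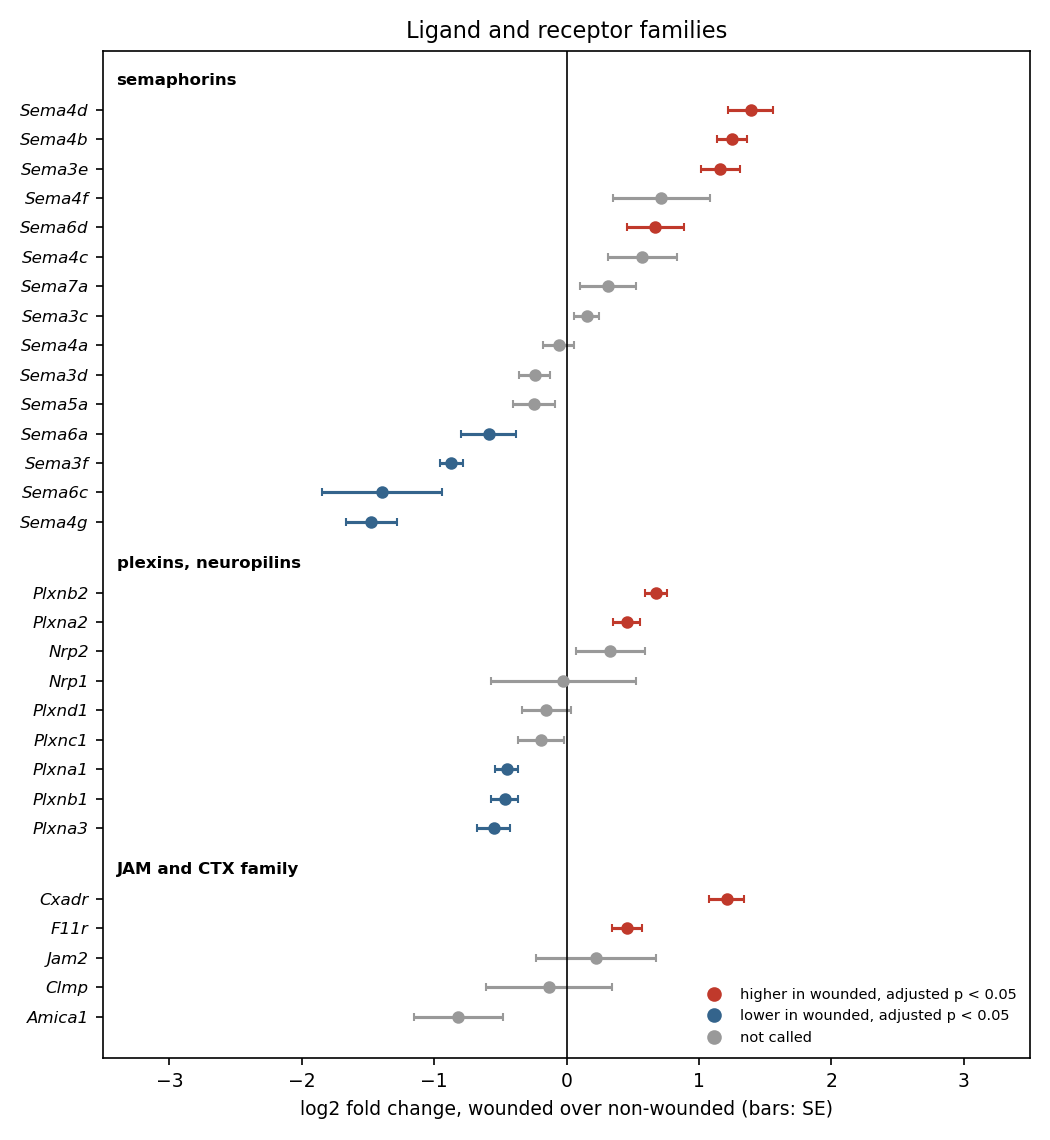
Log2 fold change, wounded over non-wounded, with its SE for every tested gene of the semaphorin, plexin and neuropilin, and JAM and CTX lists, coloured by the edgeR call. Sema4d and Cxadr rose most among the genes drawn of their families, and Plxnb2 and Plxnb1 lie on opposite sides of 0.

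Cd72 fell. It stood at 9.28, 10.6 and 6.95 CPM in the wounded libraries of mice 1, 2 and 3, against 16.0, 17.3 and 16.3 CPM in the non-wounded ones. The non-wounded values were close together and all lay above the wounded ones. The change was log2 -0.88 (SE 0.17, adjusted p = 0.00180 by edgeR), and log2 -0.78, -0.70 and -1.22 within mice 1, 2 and 3. It was called under all 15 alternatives, with log2 values from -1.21 to -0.74.

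B cell markers were close to absent beside it. The 8 markers together had 30, 32 and 23 counts in the wounded libraries of mice 1, 2 and 3 and 48, 62 and 59 in the non-wounded ones, and Pax5 and Fcrla had 0 in all 6. Cd72 alone had 198, 252 and 129 counts in the wounded libraries, against 423, 455 and 397 in the non-wounded ones. Cd72 is also made by macrophages and dendritic cells, whose markers moved both ways. Of 9 monocyte and macrophage markers tested, 3 rose (Cd14, Lyz2 and Cd68, by log2 2.89, 1.67 and 0.77), 2 fell (Cx3cr1 and the F4/80 gene Adgre1, with log2 -1.54 and -0.85) and 4 did not pass. Of 10 Langerhans cell markers 6 rose, among them the lectin gene Cd207 (log2 1.83, SE 0.14). The 2 that fell were Ltc4s (log2 -1.11) and the CSF-1 receptor gene Csf1r (log2 -1.20, SE 0.15). Of these 10 markers 80% were called, against 48.4% of all genes. Per 100 counts of the 16 T cell markers Cd72 had 4.68, 5.94 and 4.21 counts in wounded and 6.33, 7.29 and 7.91 in non-wounded libraries. The part of a change in cell types was not tested.

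The count of Sema4d relative to that of its inhibitory receptor gene was higher in wounded tissue. There were 2.26, 2.04 and 4.38 counts of Sema4d for each of Cd72 in the wounded libraries of mice 1, 2 and 3, against 0.634, 0.481 and 0.569 in the non-wounded ones, or 3.56, 4.24 and 7.69 times more within each mouse. The wounded library of mouse 3 was highest here, as it was for Sema4d itself. These ratios are not corrected for length, and in TPM Cd72 lay above Sema4d in both groups.

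Cd72 (ENSMUSG00000028459.11) lies on the minus strand of chromosome 4, from 43446462 to 43454628, and overlaps the kinase gene Tesk1 on the plus strand over 1603 bases. Tesk1 had 675, 917 and 569 counts in wounded and 696, 590 and 542 in non-wounded libraries, more than Cd72, and was higher in wounded tissue by log2 0.50 (SE 0.13) with TMM but not on the log2(TPM + 1) scale, where its value was -0.03. With strand use unknown, some reads of the shared stretch could belong to either gene. The relative transcript length of Cd72 was 0.345, 0.441 and 0.319 in wounded and 0.443, 0.506 and 0.446 in non-wounded libraries. These ranges did not overlap but nearly met, at 0.441 and 0.443. The promoter window of Cd72 (chr4:43454577-43454876, minus strand) is printed as that of a further leukocyte gene of the set. Capitals mark an AGGAAG and a TGACG (the core of the CRE, in 20.8% of windows), both on the strand opposite to the one shown:
Cd72: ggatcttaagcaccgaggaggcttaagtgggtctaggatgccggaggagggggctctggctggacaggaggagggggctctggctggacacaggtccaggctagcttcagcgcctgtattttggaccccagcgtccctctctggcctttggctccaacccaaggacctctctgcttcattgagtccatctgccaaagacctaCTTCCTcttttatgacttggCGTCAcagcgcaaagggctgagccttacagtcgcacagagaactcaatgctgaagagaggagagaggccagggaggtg
It holds 7 CG pairs, the median of all windows. No entry for Cxadr was used.

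By length-corrected level, Cxadr and Plxnb2 lay far above the other 4 genes. In wounded libraries the order in TPM was Cxadr (129 ± 5.40), Plxnb2 (111 ± 8.78), Plxnb1 (15.8 ± 2.81), Cd72 (12.6 ± 1.06), Sema4d (9.03 ± 1.95) and Amica1 (0.589 ± 0.162, SD, n = 3 each). In non-wounded libraries it was Plxnb2 (97.2 ± 9.26), Cxadr (67.5 ± 11.3), Cd72 (22.9 ± 1.11), Plxnb1 (22.7 ± 2.79), Sema4d (4.28 ± 1.16) and Amica1 (1.33 ± 0.167, SD, n = 3 each). Plxnb1 and Cd72, neighbours in both orders, overlapped in range in both groups, and no other pair of neighbours did. Cxadr and Plxnb2 changed places.

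**Figure D4:**
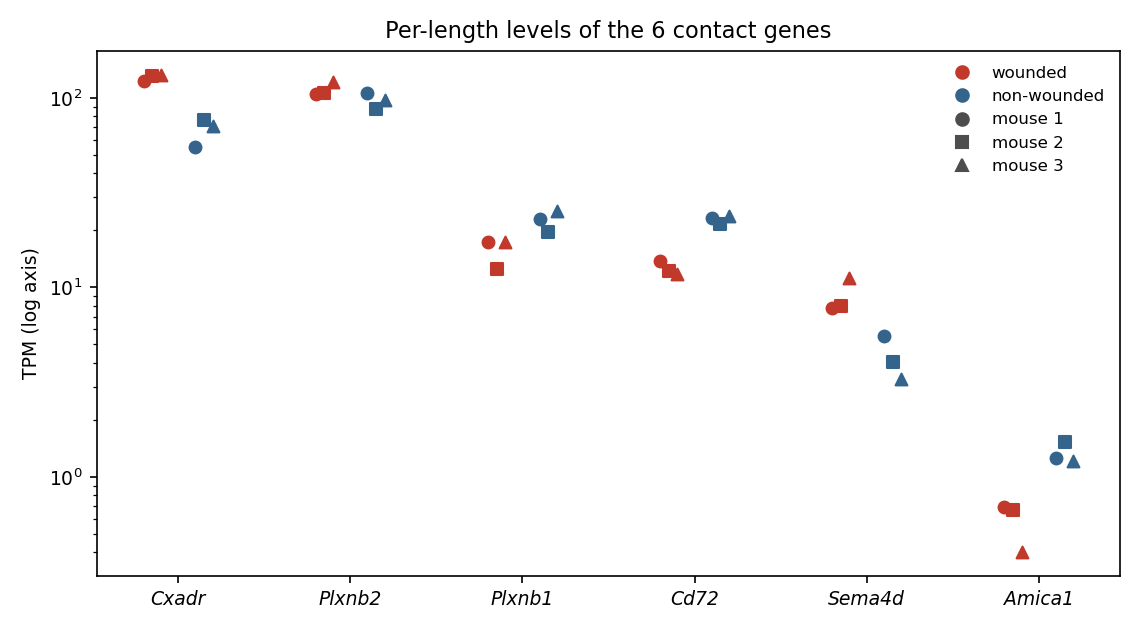
TPM of the 6 genes in each library on a log axis, wounded left of non-wounded within each gene, with 1 marker shape per mouse. Cxadr and Plxnb2 lie near 100 TPM in wounded libraries and Amica1 between 0.402 and 1.52 TPM in all, and only Plxnb2 has groups that meet.

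Of the wider JAM and CTX family, junction proteins with paired immunoglobulin domains, only 5 of 12 had enough counts to test. Cxadr and F11r rose, none fell, and Amica1, Clmp and Jam2 did not pass (40% called, against 48.4% of all genes). F11r, which encodes JAM-A of epithelial tight junctions, stood at 281 ± 8.95 CPM in wounded tissue and 205 ± 30.8 CPM in non-wounded tissue (log2 0.46, SE 0.11, adjusted p = 0.00650 by edgeR). With library totals alone its value was 0.13 (adjusted p = 0.331) and the list had 1 higher and 1 lower. Igsf5, Vsig1 and Vsig2 had 0 counts in every library.

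A list of signalling partners, co-receptors and proteases of plexin B, JAML and CD72 had 13 genes rising and 7 falling of 32 tested (62.5% called, against 48.4% of all genes, median log2 0.17). With library totals alone 9 were higher and 12 lower, and on log2(TPM + 1) 8 and 10. Among the small GTPases and kinases that plexin B receptors act on, Rnd1, which binds plexins, rose to 6.84, 6.48 and 9.81 CPM in the wounded libraries of mice 1, 2 and 3, against 0.796, 1.90 and 1.23 CPM in the non-wounded ones (log2 2.55, SE 0.33). Cfl1, the gene of the actin-severing protein cofilin, rose by log2 0.93 (SE 0.09). Rras, a GTPase that plexins inactivate, changed by log2 -1.18 (SE 0.15) and Limk2, a kinase of cofilin, by -0.84 (SE 0.14). The exchange factor genes Arhgef11 and Arhgef12, whose products bind B plexins, did not pass (log2 -0.08 and 0.15). Under library totals alone Arhgef11 was called, at log2 -0.40 (adjusted p = 0.00313 by edgeR).

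The receptor tyrosine kinases that associate with B plexins differed. Met, the hepatocyte growth factor receptor gene, rose to 109, 106 and 132 CPM in the wounded libraries of mice 1, 2 and 3, against 37.5, 32.1 and 35.7 CPM in the non-wounded ones (log2 1.72, SE 0.11, adjusted p = 2.85e-06 by edgeR). Its paralog Mst1r rose by log2 0.95 (SE 0.18), and Erbb2 did not pass at log2 -0.10 (SE 0.09). Among proteases that release surface proteins, Mmp14, which sheds CD100 from human tumour cells, fell to 36.8 ± 3.31 CPM in wounded libraries, against 56.5 ± 4.48 CPM in non-wounded ones (log2 -0.62, SE 0.11). Adam10 rose by log2 0.59 (SE 0.11), with the call lost for library totals alone and in TPM, and Adam17 did not pass (log2 -0.10).

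Genes on the JAML and CD72 side of the list moved both ways. The phosphoinositide 3-kinase regulatory subunit genes Pik3r1 and Pik3r2 changed by log2 -1.81 (SE 0.12) and -1.16 (SE 0.16), and the leukocyte catalytic subunit gene Pik3cd by -1.61 (SE 0.28). The catalytic subunit genes Pik3ca and Pik3cb did not pass (log2 0.13 and -0.21). Ptpn6, which encodes the phosphatase SHP-1 that CD72 recruits, fell to 18.6, 18.0 and 13.8 CPM in the wounded libraries of mice 1, 2 and 3, against 57.4, 54.0 and 55.9 CPM in the non-wounded ones (log2 -1.73, SE 0.13, adjusted p = 4.62e-06 by edgeR). Blnk, an adaptor of B cell receptor signalling, rose by log2 0.95 (SE 0.10), and the adaptor gene Grb2 by 0.62 (SE 0.11). The kinase genes Akt1 and Akt2, which act after phosphoinositide 3-kinase, rose by log2 0.48 (SE 0.10) and 0.61 (SE 0.08), with the call of Akt1 lost for library totals alone and in TPM.

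**Figure D5:**
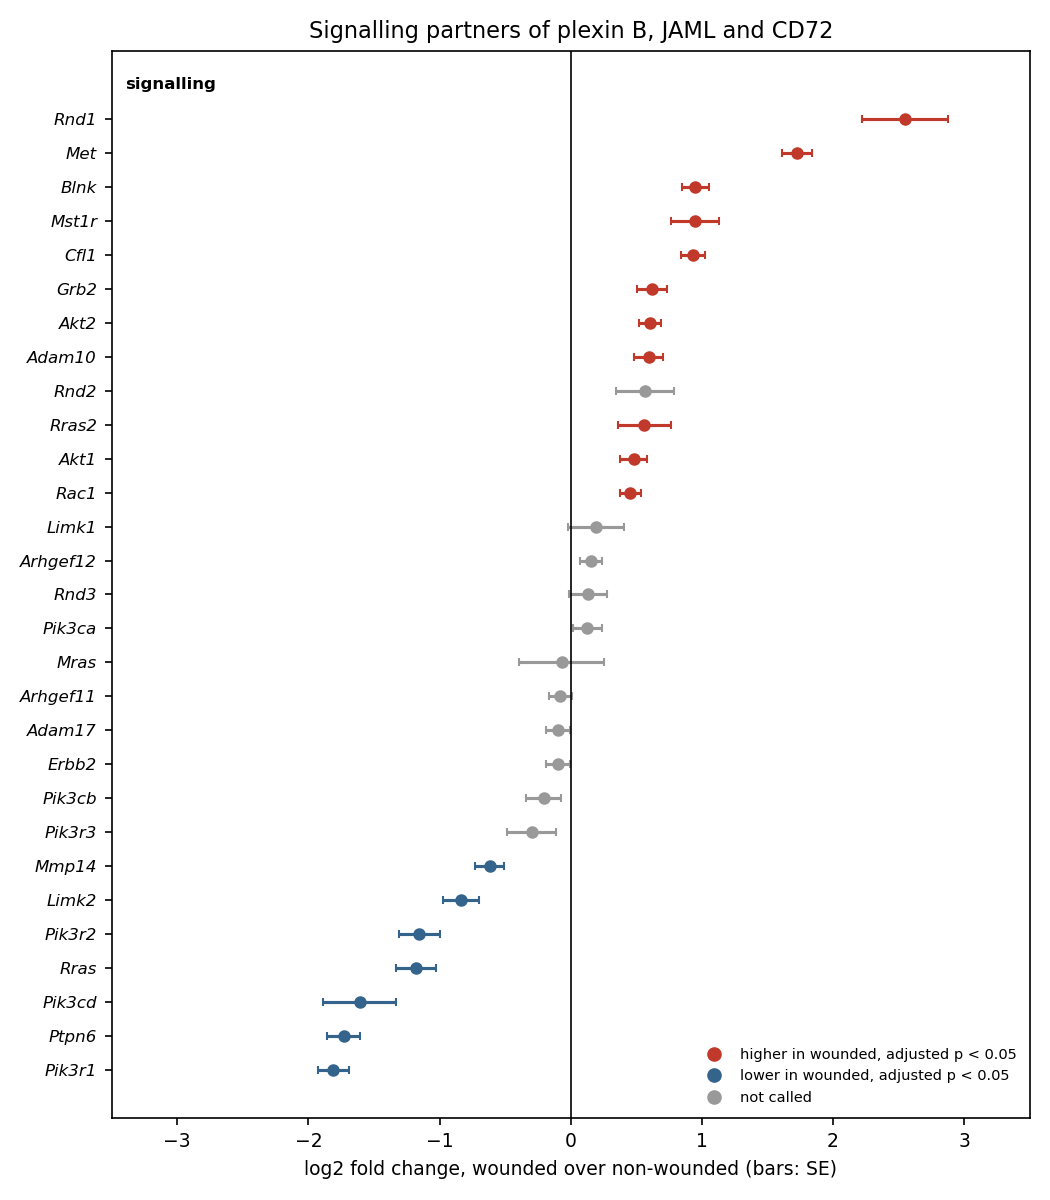
Log2 fold change, wounded over non-wounded, with its SE for the signalling genes of plexin B, JAML and CD72, coloured by the edgeR call, with 3 of the 32 not drawn. Of the genes drawn, Rnd1 and Met rose most, and Pik3r1, Ptpn6 and Pik3cd fell most.

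The genes most like each contact gene were found by the distance between centred log2 CPM over the 6 libraries, among 12110 genes. Nearest to Cxadr were Hccs, Tnfrsf12a (the receptor of the cytokine TWEAK) and Sdcbp2, at distances of 0.13, 0.15 and 0.17 on the log2 scale. Closest to Sema4d were Polr3d, Rcc1 and Pxn, the paxillin gene of focal adhesions (0.19 each). Plxnb2 was followed most closely by Plpp6, Ndel1 and Gtf2f1 (0.07, 0.09 and 0.09), and Plxnb1 by Cchcr1, Trip6 and Tdrd3 (0.08, 0.11 and 0.11). Cd72 had Fam120c, Bbox1 and Orc3 as nearest genes (0.12, 0.13 and 0.14), and Amica1 had Pdzd4, Chd5 and the FLT3 ligand gene Flt3l (0.16, 0.20 and 0.20). With 6 libraries in 2 groups these lists describe the size of the change and the spread, and no p-value is attached.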

How the data were processed

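The deposited tables hold, for 6 libraries and by gene symbol, estimated counts and TPM. Salmon made both from reads set against mm10, per the submitters' processing notes and a methods sheet the authors deposited. The Salmon version and the annotation are not given there.

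Estimated counts were rounded. Genes kept by filterByExpr (16079) were normalized with TMM, and edgeR 4.0.16 (quasi-likelihood test, R 4.3.3) compared both groups with no mouse term in the model and Benjamini-Hochberg adjustment. The SE of a log2 fold change is its size over the root of F. In the simulated data used to test the procedure few genes changed, evenly in both directions, and no mouse effect was set. That test therefore does not bear on the choice of scaling. CPM use the total of the kept genes times the TMM factor. Alternatives were RLE, upper-quartile and no factors, no filter, DESeq2 1.42.0, the mouse as a block, limma 3.58.1 on log2(TPM + 1) and log2(TPM + 0.1) with TPM of at least 1 in 3 libraries or no filter, and each library left out. Changes within a mouse are log2 ratios of CPM with 0.1 added. TMM factors were 0.887 to 0.898 in wounded and 1.12 in non-wounded libraries. The labels place both libraries of a number in 1 mouse, and their deviations from the group means correlated at 0.15, 0.04 and 0.17 for mice 1, 2 and 3. Replicates of a group differed by more than counting noise (chi-square per gene 13.7 to 37.1), and the number of counts limits precision for Amica1.

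The genes and lists were chosen with earlier results of these data known. Named genes are the 6, then the called genes of each list averaging 1 CPM or more, a few fixed partners and the 3 nearest genes of each by pattern. Markers and overlapping genes given beside a result, and list genes that did not pass, were chosen after their values were seen. Coordinates come from GENCODE M21 (GRCm38) and promoters from RefSeq (GRCm38.p6), in which 5 of the 6 genes were matched, Amica1 through its synonym Jaml. Motifs were searched on both strands: those spelled out beside the promoters and the kappaB motif, which no printed window holds and the second Plxnb2 window holds once. Some results of the signalling list are not reported here.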

Additional observations from a re-analysis of the deposited data

How the results depend on the processing

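Cxadr, Sema4d and Cd72 kept their direction and call under all 15 alternatives. Amica1 was lower in each and became called with upper-quartile factors (log2 -0.96), library totals alone (-1.14), log2(TPM + 1) with and without the filter (-0.56 in both) and log2(TPM + 0.1) (-1.08). Plxnb1 and Plxnb2 lost their call on log2(TPM + 1) with and without the filter (-0.50 and 0.19 in both) and on log2(TPM + 0.1) (-0.53 and 0.19), where the plexin and neuropilin list had 2 calls in place of 5. The cause was not tested. With 1 library left out, the semaphorin list had 5 to 9 calls, with 5 without the wounded library of mouse 3, against 8. Over the left-out libraries Amica1 ranged from log2 -0.95 to -0.60. With the mouse as a replicate block the values were -0.85 (Amica1, adjusted p = 0.0520 by edgeR), 1.23 (Cxadr), 1.38 (Sema4d), -0.47 (Plxnb1), 0.68 (Plxnb2) and -0.90 (Cd72). The block changed no call of the 6 genes, and the 4 lists moved by at most 2 calls. Sema4a, near 0 with TMM, ranged from log2 -0.13 to 0.028 with 1 library left out, and was 0.0083 without the wounded library of mouse 3. With library totals alone Sema4a was called lower, at log2 -0.38 (adjusted p = 0.0176 by edgeR). So were Erbb2 (log2 -0.42), Adam17 (-0.42) and Pik3cb (-0.53), while Arhgef12 and Pik3ca still did not pass. Tesk1 turned to -0.028 on log2(TPM + 1), with and without the filter, and to -0.031 on log2(TPM + 0.1). Higher genes made up 49.6% of all calls with TMM, 37.1% with upper-quartile factors, 24.6% with library totals alone and 25.1% with log2(TPM + 1). Depth limits Amica1, at 16 to 71 counts per library.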
